A study of Homo sapiens with 12 samples.

Results

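The baseline transcriptome of SKBR-3 was described from the 3 control libraries of a study of 12 libraries. SKBR-3 is an established human breast cancer cell line with amplified HER2 (ERBB2) and no estrogen receptor. The cells of these 3 samples were transfected with a non-targeting (NT) siRNA control pool and then treated with DMSO, the drug solvent, for 24 h, so every library describes cells that had been transfected and given solvent, and untransfected cells were not analysed here. The labels give 48 h of siRNA before DMSO, whereas the methods give a shorter interval. The other 9 libraries received a FOXA1 siRNA pool, the HER2 and EGFR kinase inhibitor lapatinib, or both, and are not used here. All libraries were made from polyadenylated RNA of 1 cell line, and nothing in the labels says that the replicates were separate cultures, so the spread below may be technical.

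HER2-positive luminal breast cancer cells are known for transcription of a short stretch of chromosome 17q12 around ERBB2, a receptor tyrosine kinase that signals with ERBB3 and EGFR. FOXA1, GATA3, SPDEF and related factors keep the luminal epithelial program, with simple keratins and tight junction proteins, while basal cells use KRT5, KRT14 and TP63 and mesenchymal cells use vimentin. Levels are given as TPM (a unit of transcript abundance), which are scaled by transcript length so that genes can be compared, and as mean ± SD over the 3 libraries (n = 3). A gene was taken as detected at 1 TPM or more in all 3 libraries, as not detectable at under 3 expected counts in all 3, and as trace otherwise.

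The genes set to mark these cells were all detected. RPL19, a protein of the large ribosomal subunit encoded on the same arm of chromosome 17 as ERBB2, was the most abundant transcript at 28317 ± 526 TPM, and H19, an imprinted long noncoding RNA, ranked 3 at 10462 ± 511. ERBB2 stood at rank 21 with 3073 ± 365 TPM. GRB7, an adaptor protein that binds HER2, reached 322 ± 15.0 TPM at rank 414, and FOXA1, a pioneer factor of luminal cells, 178 ± 5.86 TPM at rank 915. These genes were set as markers beforehand, and 56.2% of all genes were detected, so their detection did not test the cell line label.

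The start regions of 4 of these 5 genes are shown to place the transcripts that lead the results, as 120 bases before and 10 bases from the RefSeq start (GRCh38.p14, read on the strand of the gene), with CpG dinucleotides in capitals. GRB7 is not shown. RPL19 lies at chr17:39200163-39200292 on the plus strand, ERBB2 at chr17:39687974-39688103 on the plus strand, H19 at chr11:2001257-2001386 on the minus strand and FOXA1 at chr14:37595240-37595369 on the minus strand.
RPL19: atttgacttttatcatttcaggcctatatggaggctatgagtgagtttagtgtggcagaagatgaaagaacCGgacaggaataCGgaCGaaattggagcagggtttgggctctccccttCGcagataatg
ERBB2: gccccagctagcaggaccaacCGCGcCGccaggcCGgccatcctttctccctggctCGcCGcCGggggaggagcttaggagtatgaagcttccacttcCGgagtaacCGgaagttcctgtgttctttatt
H19: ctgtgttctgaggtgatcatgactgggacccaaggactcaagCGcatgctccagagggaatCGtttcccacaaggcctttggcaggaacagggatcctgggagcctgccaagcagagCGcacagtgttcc
FOXA1: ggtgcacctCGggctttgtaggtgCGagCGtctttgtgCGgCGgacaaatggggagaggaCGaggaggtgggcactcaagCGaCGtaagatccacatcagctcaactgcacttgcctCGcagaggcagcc

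Over the whole 300-base window of each promoter, the observed to expected ratio of CG was 0.861 in RPL19, 0.873 in ERBB2, 0.966 in FOXA1 and 0.242 in H19. A ratio of at least 0.6 was found in 66.7% of the 15396 promoters matched to genes of the files. The H19 window was thus the only one of these 4 under that ratio. Each window lies at a single RefSeq start, and whether these transcripts began there or at other starts was not tested.

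The expected counts summed to 31126943, 30112796 and 31643469 in replicates 1, 2 and 3. Replicate 2 stood apart from the others. Across 8377 genes with a mean of at least 10 TPM and no 0, the SD of the log2 ratio was 0.11 between replicates 1 and 3, 0.20 between 1 and 2, and 0.21 between 2 and 3. Replicate 2 was the library farthest from the median in 57.3% of these genes. Results that rest on it are given with and without it below.

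Of 20531 genes listed, 11531 (56.2%) were detected, 3306 had trace levels, and 5696 (27.7%) were not detectable, of which 3833 had 0 counts in all 3 libraries. Only 2 short snoRNA genes, SNORA41 and SNORD88B, met both rules. Leaving out replicate 2 gave 11611 detected genes. The counts of detected members in the gene lists below are to be read against the 56.2% of all genes. For genes not detectable, 3 counts would have amounted to a median of 0.118 TPM, so a lower level would not have been seen at this depth.

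The transcript pool was concentrated in few genes. Only 117 genes had a mean of 1000 TPM or more, and they held 31.7% of the TPM of all listed genes. A further 1597 genes between 100 and 1000 TPM held 40.5%, whereas the 3153 detected genes under 10 TPM held 1.66%. In all, 467 genes accounted for 50% of the TPM and 4602 genes for 90%.

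The 25 most abundant genes held 15.4% of the TPM, with 13 ribosomal protein genes among them. RPL19 measured 27743, 28776 and 28431 TPM in replicates 1, 2 and 3. GAPDH, a glycolytic enzyme, followed with 13663, 11681 and 13533 TPM. H19 measured 10442, 10984 and 9961 TPM. These 3 ranges did not overlap, and their order was the same in every library.

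Below them came EEF1A1, the translation elongation factor, at 6803 ± 72.3 TPM, and S100A6, a calcium-binding protein, at 5338 ± 406. KRT19 and KRT8, keratins of simple epithelium, reached 5180 ± 142 and 3891 ± 307 TPM, and ACTB, cytoskeletal actin, 4598 ± 378. DHRS2, a short-chain dehydrogenase, had 3368, 2681 and 3451 TPM, lowest in replicate 2. Of the 24 pairs of neighbors in this order, 14 had overlapping ranges over the replicates, so most neighboring ranks were not separated by the replicate spread.

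**Figure D1:**
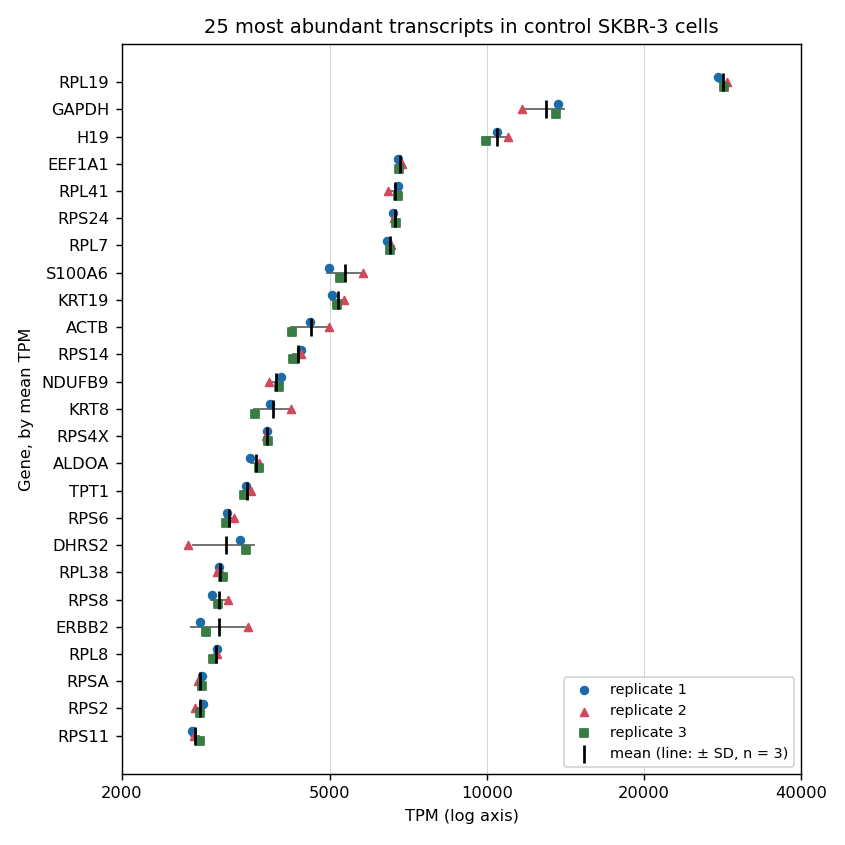
TPM on a log axis of the 25 genes with the highest mean, with 1 symbol per replicate, the mean as a vertical mark and ± SD (n = 3) as a line. RPL19 lies alone at 28317 TPM, and GAPDH, DHRS2 and ERBB2 show the widest separation of replicate 2 (triangles) from the other replicates.

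Ranking by expected counts, which grow with transcript length, gave a different order. H19 had the most counts with a mean of 313884, ahead of RPL19 with 311454. Their ranges overlapped, and in replicate 3 RPL19 led with 319475 counts against 302851 for H19. FASN, the fatty acid synthase, came next by counts with 230249, before ERBB2 with 228581. Long transcripts therefore took many of the reads without leading per length, since FASN had 2012 ± 224 TPM.

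The 84 ribosomal protein genes held 17.8% of the TPM, and 14.8% without RPL19. RPL19 stood well apart from its own family, at 20.02 to 20.78 times the median of the other ribosomal protein genes and 4.10 to 4.33 times the next highest in each library. A like separation was seen for NDUFB9, a subunit of respiratory complex I encoded on chromosome 8, with 4028, 3832 and 4007 TPM. This was 19.8 to 20.4 times the median of the 35 other complex I subunit genes (NDUFA, B, C, S and V symbols), of which the highest, NDUFS5, had 592 TPM.

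ERBB2 dominated its receptor family with 92.7% of the summed TPM of the 4 members. It measured 2826, 3493 and 2901 TPM, and its mean without replicate 2 was 2864. ERBB3, the kinase-impaired partner of HER2, had 169 ± 12.5 TPM, EGFR had 71.0 ± 3.28, and ERBB4 had a trace of 0.497 ± 0.0503. The ranges of the 4 receptors did not overlap, with ERBB2 at 17.1 to 19.1 times ERBB3 and 37.8 to 51.0 times EGFR.

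Transcripts of the ligands for these receptors were low. Of 11 ligand genes, 5 were detected, and the highest was EGF at 7.08 ± 0.645 TPM, followed by EPGN (2.63 ± 1.08) and AREG (2.17 ± 0.482), which encode further EGFR ligands. With a limit of 2 TPM in all 3 libraries, only EGF was detected. TGFA, NRG1 and NRG3 were not detectable. NRG1, a main ligand of ERBB3, had 0 counts in all 3 libraries, and 3 counts would have been 0.0881 TPM.

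Genes around ERBB2 were high as a group. Among windows of 21 neighboring genes in RefSeq order (GRCh38.p14), the highest median on chromosome 17 was 226 TPM, in the window from ERBB2 to TOP2A (chr17:39688094-40417896), with 16 of its 21 genes detected. This was the highest window of this size on any chromosome, before 97.8 TPM on chromosome 11 and 95.2 on chromosome 1. The lead depended on the size, which was varied for all chromosomes after these values were seen. With 11 genes chromosome 17 had 322 TPM, around TCAP, and chromosome 1 had 237, and with 41 genes they had 71.6 TPM, around PNMT, and 64.7. In single libraries its median was 240, 202 and 237 TPM, so replicate 2 was the lowest, and in each library it exceeded the highest windows of chromosomes 1, 8, 11 and 20, which ranged from 76.8 to 102 TPM. Chromosome 17 held 11.3% of the TPM over 1194 genes, RPL19 included.

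The levels within the window were uneven. MIEN1, which overlaps the end of ERBB2 and could share reads with it, had 978 ± 48.1 TPM, and PSMD3, a proteasome subunit, 977 ± 47.6. GSDMB, a gasdermin, reached 686 ± 20.2 TPM, MSL1, a chromatin complex subunit, 485 ± 11.5, MED24, a Mediator subunit, 415 ± 13.6, and TOP2A, the DNA topoisomerase of dividing cells, 383 ± 49.6. CASC3, ORMDL3, CDC6, WIPF2 and RARA lay between 116 and 262 TPM, and THRA, NR1D1 and RAPGEFL1 between 14.1 and 43.0. In the midst of them ZPBP2, GSDMA and CSF3, a cytokine gene of other cells, were not detectable, and IKZF3, a lymphoid factor, had a trace of 1.01 ± 0.208 TPM.

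On the other side of ERBB2, CDK12, a transcriptional kinase, had 688 ± 14.7 TPM, STARD3, a cholesterol-binding membrane protein, 407 ± 28.9, and MED1, a Mediator subunit, 359 ± 13.3. PPP1R1B, a phosphatase inhibitor, measured 36.8, 78.6 and 37.4 TPM, and replicate 2 was above both others. In the same stretch NEUROD2, a neuronal factor, had a trace of 0.0533 ± 0.0306 TPM. Detected and silent genes thus lay side by side.

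**Figure D2:**
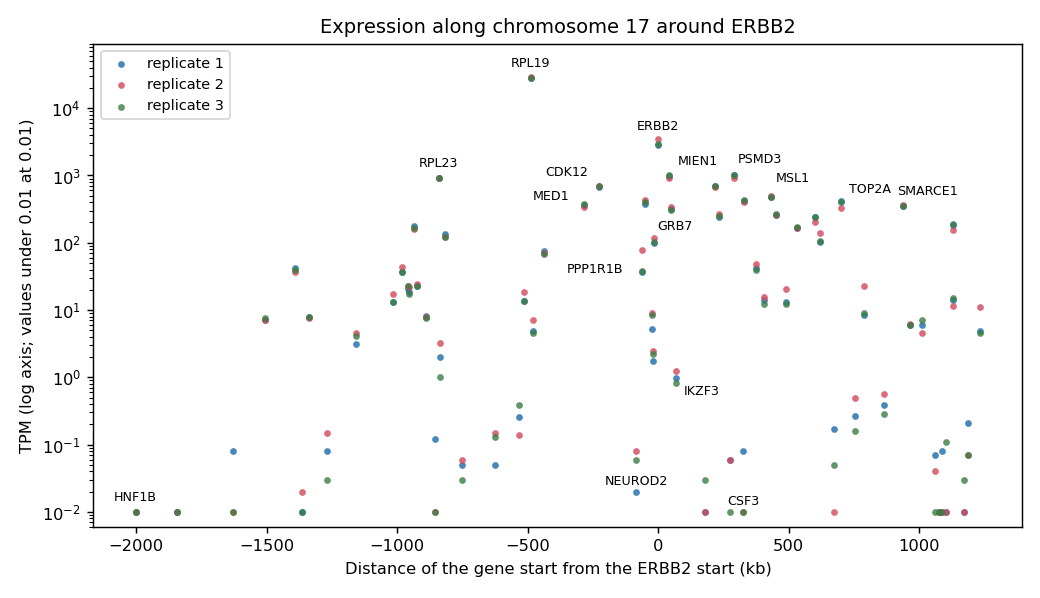
TPM on a log axis of 71 consecutive genes of chromosome 17 in each replicate (colors), against the distance of their starts from the ERBB2 start in kb, with values under 0.01 drawn at 0.01. From CDK12 to TOP2A 16 of 28 genes lie above 100 TPM, with ERBB2 highest among them and RPL19 higher still outside that stretch, and single genes such as NEUROD2, IKZF3 and CSF3 at or near 1 TPM or below.

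The highest windows on chromosomes 8 and 20 were chosen for description after their values were seen. On chromosome 8 the window around TMEM65 had a median of 78.6 TPM and held NDUFB9 and ATAD2, a bromodomain ATPase at 510 ± 93.4 TPM. On chromosome 20 the window from BCAS1 to CTCFL had a median of 82.3 TPM, and it held AURKA, a mitotic kinase (245 ± 19.5), and TFAP2C, a luminal factor (246 ± 10.4). Chromosome 20 had the highest median TPM of detected genes of any chromosome, 41.6, against 24.0 over all detected genes.

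Luminal and epithelial genes were prominent among the lists of cell type markers. These lists and those below were chosen with earlier results of these data known. Detection in them therefore did not test the identity of the cells. Of 24 luminal and epithelial markers 22 were detected, with a median of 251 TPM over the list, while 56.2% of all genes were detected. KRT7, KRT8, KRT18 and KRT19 held 90.1% of the TPM of the 55 keratin genes, of which 17 were detected. CD24, a surface glycoprotein, had 997 ± 133 TPM, JUP, a junction protein, 866 ± 79.7, and CLDN4, a tight junction claudin, 423 ± 30.1. EPCAM, an epithelial adhesion molecule, had 291 ± 10.1 TPM.

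The members of this list that were not detected were its cadherins. CDH1, which encodes E-cadherin and is known to be lost in SKBR-3, had 8, 5 and 2 expected counts, or 0.0667 ± 0.0351 TPM. CDH3, which encodes P-cadherin, had 0 counts in all libraries. The catenins that bind cadherins were nevertheless present, with CTNNA1 at 559 ± 17.97 TPM and CTNND1 at 148 ± 6.42.

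**Figure D3:**
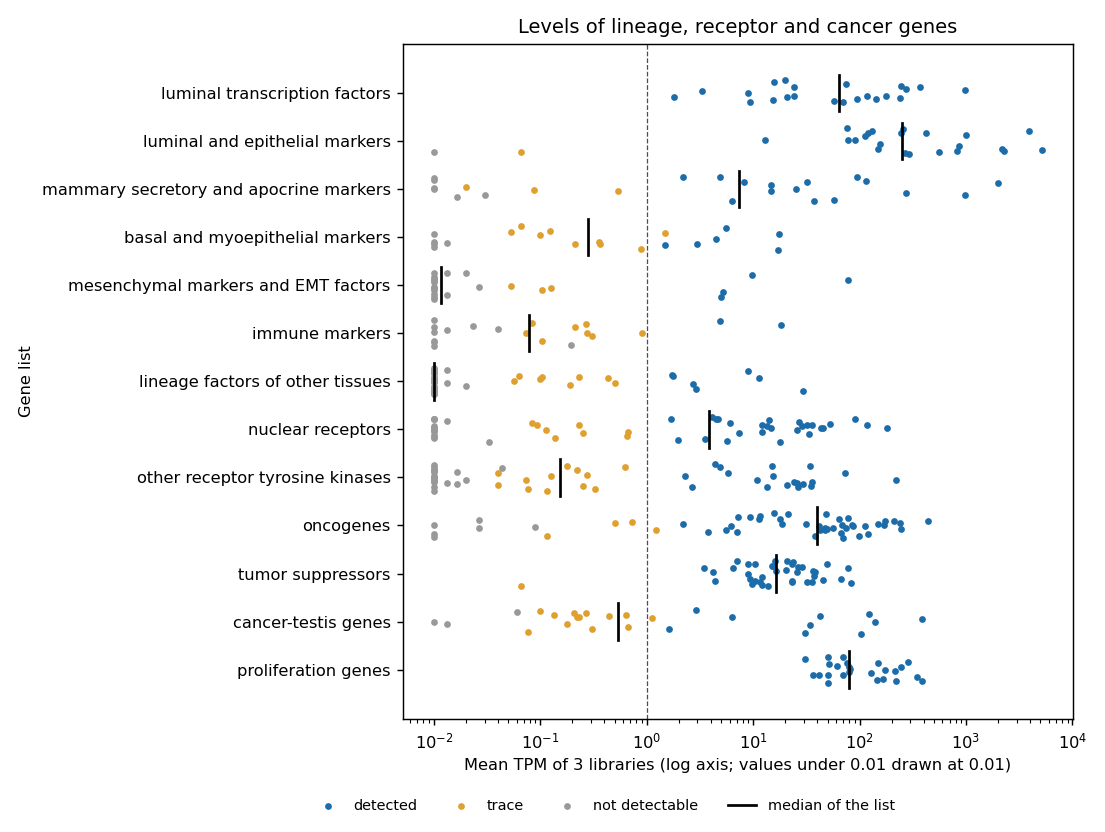
Mean TPM over 3 libraries (log axis, values under 0.01 drawn at 0.01) of the members of 13 gene lists, with detected genes in blue, trace genes in orange and genes not detectable in grey, a black bar at the median of each list and a dashed line at 1 TPM. Luminal, epithelial, proliferation and tumor suppressor genes lie almost all to the right of 1 TPM, and mesenchymal, immune and other-tissue genes mostly to the left.

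Markers of other cell types were mostly absent. Of 20 basal and myoepithelial markers 6 were detected, the highest being KRT15 at 17.5 ± 0.318 TPM and ITGB4, an integrin subunit, at 16.96 ± 3.05. The defining basal genes were low, with KRT5 at a trace of 0.210 ± 0.110 TPM and KRT14, KRT6A, CNN1, SOX10 and MME not detectable. Of 22 mesenchymal markers 4 were detected and 15 were not detectable, among them VIM (vimentin), ZEB1, ZEB2, TWIST1, SNAI2 and CDH2. VIM had 2 counts in replicate 2 and 0 in the others. The highest member of that list was FN1, which encodes fibronectin, with 69.4, 95.6 and 69.5 TPM.

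Immune markers were detected for 2 of 20 genes, namely CD68, a lysosomal protein, at 15.0, 24.5 and 14.8 TPM, and CSF1R, the CSF1 receptor, at 4.91 ± 1.38. PTPRC, which marks all leukocytes, was not detectable. Endothelial markers were detected for 2 of 11 genes, ESAM (15.4 ± 0.676 TPM) and CDH5 (8.88 ± 1.82), both of them adhesion molecules, while PECAM1 had a trace and TEK and TIE1 were not detectable. CFD (complement factor D), at 7.93 ± 0.168 TPM, was the only one of 7 adipocyte markers detected at 1 TPM, while 3 passed a limit of 10 expected counts in all 3 libraries. In bulk RNA a few cells with much of a transcript and many cells with little cannot be told apart.

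Mammary secretory and apocrine genes were split. Of 24 listed, 15 were detected (62.5%), near the 56.2% of all genes. They were led by FASN and by S100A9, a calcium-binding protein, at 885, 1252 and 821 TPM. AGR2, a secretory pathway protein, had 272 ± 27.9 TPM, and TFF3 and TFF1, the trefoil peptides, 37.2 ± 9.21 and 32.2 ± 3.77. The milk protein genes CSN1S1, CSN2, CSN3 and LALBA had 0 TPM in every library and were not detectable. SCGB2A2, which encodes mammaglobin, measured 74.7, 196 and 71.0 TPM, so its mean of 114 rested on replicate 2.

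All 22 luminal transcription factors were detected, against 56.2% of all genes. XBP1, a regulator of secretory cells, had 979 ± 79.0 TPM, and SPDEF, an ETS factor, 372 ± 31.9. TFAP2C (246 ± 10.4) and ELF3 (239 ± 4.45) stood above FOXA1, which measured 172, 177 and 184 TPM. ZNF217, TRPS1 and CREB3L4 lay between 95.2 and 144 TPM. GATA3 was lower, at 57.6 ± 1.10 TPM, and FOXA1 was 3.03 to 3.18 times GATA3 in each library.

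Factors of other lineages were largely silent. Of 47 lineage factors of other tissues 7 were detected (14.9%, against 56.2% of all genes). A further 32 were not detectable, among them SOX2, MYOD1, NKX2-1, HNF4A, CDX2, TAL1 and PDX1. Among those detected were GATA2 (29.4 ± 1.66 TPM), GATA6 (11.3 ± 0.762), RUNX1 (8.93 ± 0.389), MITF, RUNX3 and GATA5. GATA2 and GATA6 were the only ones above 10 TPM.

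Levels differed widely within families of transcription factors. FOXA1 led 40 forkhead genes, of which 14 were detected, and was 2.05 to 2.71 times FOXM1, a cell cycle factor with 84.0, 65.3 and 87.4 TPM. FOXA2 and FOXA3, its closest relatives, were not detectable. FOXK2 (65.5 ± 1.86), FOXJ3 (47.0 ± 2.53) and FOXP4 (31.2 ± 3.44) followed. FOXO3, a factor restrained by AKT, had 13.02 ± 0.602 TPM and FOXO1 9.03 ± 1.52.

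Among 19 SOX genes 4 were detected, SOX13 (82.8 ± 8.14), SOX12 (62.1 ± 2.99), SOX4 (34.5 ± 4.21) and SOX9 (20.3 ± 1.01 TPM), while 8 passed a limit of 10 expected counts in all 3 libraries. PAX9, at 15.0 ± 0.550 TPM, was the only PAX gene of 9 detected, and 2 passed the limit of 10 counts. In the ETS family 16 of 27 were detected (59.3%), near the 56.2% of all genes. FLI1, FEV, SPIB, SPIC and ETV5 were not detectable. KLF genes were detected for 13 of 17 (76.5%), none above the 38.9 ± 6.06 TPM of KLF13. STAT3, which transmits cytokine signals, had 181 ± 15.5 TPM and led 6 detected STAT genes, and STAT4 was not detectable.

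HOX genes, which specify position along the body axis and lie in 4 clusters, were expressed from 1 cluster. Of 9 HOXC genes 7 were detected, whereas none of the 30 genes of HOXA, HOXB and HOXD was. Those 30 genes had 12 expected counts in total over the 3 libraries, against 7277 for the HOXC genes. HOXC13 was highest at 27.1, 26.1 and 27.3 TPM, followed by HOXC10 (15.7 ± 0.840), HOXC6 (11.6 ± 2.43) and HOXC9 (7.74 ± 0.545). HOXC11, HOXC4 and HOXC8 lay between 2.09 and 4.11 TPM, and HOXC5 had a trace of 1.25 ± 0.573. HOXC4, HOXC5 and HOXC6 overlap in RefSeq coordinates and had fractional counts, so reads could be divided between them. HOXC12, which lies between HOXC13 and HOXC11, was not detectable. For the genes of the other 3 clusters, 3 counts would have given between 0.0609 and 0.345 TPM. HOTAIR, a noncoding RNA of the HOXC cluster, had a trace of 0.957 ± 0.304 TPM.

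**Figure D4:**
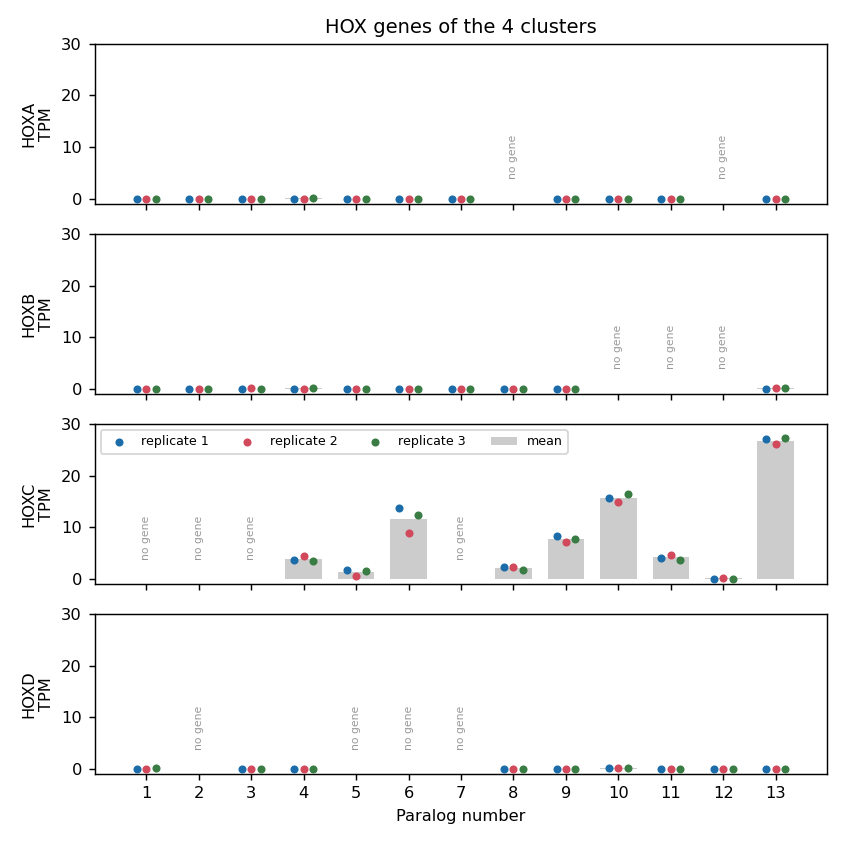
TPM of the HOX genes of clusters A to D by paralog number, with the mean as a bar and each replicate as a point, and "no gene" where a cluster has no such paralog. All visible bars are in HOXC, where HOXC13 reaches 26.8 TPM and HOXC12 lies at 0.0267.

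Nuclear receptors, the factors switched by steroids and other lipophilic ligands, were detected for 27 of 48 genes, near the share of all genes. NR2F6, an orphan receptor, led with 180 ± 6.10 TPM, before RARA, a retinoic acid receptor of the 17q window, with 104, 138 and 106 TPM. ESRRA, an estrogen-related orphan receptor, had 90.8 ± 8.89 and RARG 53.1 ± 2.35. NR1H2, THRA, VDR and NR4A1 lay between 33.6 and 45.2 TPM. ESR1, the estrogen receptor gene, had 16, 13 and 16 expected counts or 0.230 ± 0.0872 TPM, and ESR2 a trace. PGR, the progesterone receptor gene, was not detectable. NR3C1, the glucocorticoid receptor, was detected at 14.6 ± 2.04 TPM.

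Receptor tyrosine kinases outside the HER family were detected for 19 of 50 genes, and 19 were not detectable. DDR1, a collagen receptor, was the highest with 219 ± 15.0 TPM, which was above ERBB3. The ephrin receptors EPHB4 (72.8 ± 7.83) and EPHB3 (35.1 ± 3.34) and the pseudokinase RYK (35.8 ± 1.56) followed. FGFR2 (34.1 ± 1.85), FGFR4 (29.6 ± 3.11), MET (26.7 ± 1.24) and TYRO3 (25.6 ± 1.80) overlapped in part. IGF1R and INSR were low, at 4.42 ± 0.784 and 2.69 ± 0.295 TPM. AXL, ALK, ROS1, NTRK2, NTRK3, PDGFRA, FLT3 and ROR1 were not detectable, and KIT and RET had traces.

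Of 50 oncogenes 40 were detected (80%, against 56.2% of all genes), with a median of 39.95 TPM over the list. RHOA, a small GTPase, led with 438 ± 9.84 TPM, and AKT1, a kinase of the PI3K pathway, had 238 ± 2.74. MYC, a growth-promoting factor, measured 161, 176 and 168 TPM, and MCL1, which restrains apoptosis, 172 ± 2.15. CCND1, which encodes cyclin D1, measured 127, 180 and 140 TPM, highest in replicate 2, and its kinase partner CDK4 120 ± 1.47. CCND2, GLI1, GLI2, FLI1 and ETV5 were not detectable. Of the small GTPases of the RAS family, HRAS had 113 ± 10.0 and NRAS 48.9 ± 2.20 TPM, and these ranges did not overlap.

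Tumor suppressor transcripts were present almost throughout, in 38 of 39 genes, the exception being CDH1. NCOR1, a corepressor, had 83.3 ± 4.32 TPM, and CDKN2C, a CDK inhibitor, 66.8 ± 10.7. ARID1A, CDKN1B, VHL, CDKN2A and RB1 lay between 36.8 and 49.95 TPM. A transcript level says nothing of mutations, which were not analysed here. All 25 proliferation genes were detected, with a median of 80.0 TPM and TOP2A and PCNA the highest.

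Germline and imprinted genes gave isolated high values. CTAG2, a cancer-testis antigen of the X chromosome that is normally restricted to germ cells, measured 392, 387 and 384 TPM and ranked 324 of all genes. MAGEA3 and MAGEA6, near-identical neighbors whose reads could be divided between them, summed to 261 ± 5.06 TPM. CTCFL, a testis relative of CTCF, had 104 ± 11.2 TPM. In all, 10 of 26 cancer-testis genes were detected, with 13 at trace levels, PRAME and CTAG1B among them.

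Of 18 imprinted genes 9 were detected (50%), near the 56.2% of all genes. H19 was accompanied by almost no IGF2, the growth factor gene beside it, which had 9, 7 and 9 expected counts or 0.117 ± 0.0153 TPM. MEST had 235 ± 4.65 TPM and PEG10, a retrotransposon-derived gene, 106 ± 22.6. MEG3, DLK1 and MAGEL2 were not detectable. Among 12 long noncoding RNAs 9 were detected, and the next after H19 were MALAT1 at 169 ± 23.7 TPM and GAS5 at 169 ± 12.9, whose ranges overlapped.

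Interferon-stimulated genes were not set apart from other genes by their detection. Of 27, 15 were detected (55.6%), close to the 56.2% of all genes, and the median was 2.51 TPM over the list against 3.72 over all genes. ISG20, an exonuclease, had 38.8 ± 7.07 TPM, USP18, which removes ISG15 from proteins, 24.8 ± 2.64, IFIH1, a sensor of viral RNA, 18.4 ± 0.603, and IFI6, a membrane protein, 13.4 ± 3.45. A further 11 members had traces, among them MX1, IFIT1, IFIT2, IFIT3 and RSAD2, which act against viruses, at 0.0467 to 0.27 TPM. IFI44L was not detectable.

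All 20 housekeeping genes were detected but covered a wide range, from GAPDH down to HPRT1, a purine salvage enzyme, at 68.1 ± 2.403 TPM and TBP, the TATA-binding protein, at 17.8 ± 0.733. GAPDH itself was lower in replicate 2 than in the others, and its coefficient of variation (CV, the SD over the mean) of 8.56% was above that of EEF1A1, 1.06%.

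Spread between replicates was then measured over all genes. The median CV was 5.40% over 8380 genes with a mean of at least 10 TPM, and counting alone would have given 2.401%. Without replicate 2 it was 2.72%. The common biological coefficient of variation of the counts, estimated with edgeR, was 9.18%, and 3.67% without replicate 2. The CV exceeded 20% in 290 genes (3.46%). The median CV was 2.54% at 1000 TPM or more and 11.4% among detected genes under 10 TPM. Counting alone would have given 0.619% and 7.25% in these classes, so counting error was also larger at low abundance.

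The differences of replicate 2 had a direction in several lists. All 25 proliferation genes were lower in replicate 2 than the mean of replicates 1 and 3, with a median log2 ratio of -0.31, while over 8377 genes the median was 0.01 and 3951 were lower. RRM2, a subunit of ribonucleotide reductase, measured 242, 160 and 240 TPM, and PCNA, the DNA clamp of replication, 388, 283 and 366. In contrast, 19 of 22 luminal and epithelial markers were higher in replicate 2, with a median of 0.18, as were 8 of 9 KLF genes (0.28). The 11 secretory and apocrine genes had a median of 0.53, with 7 higher and 4 lower. What set replicate 2 apart was not tested.

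**Figure D5:**
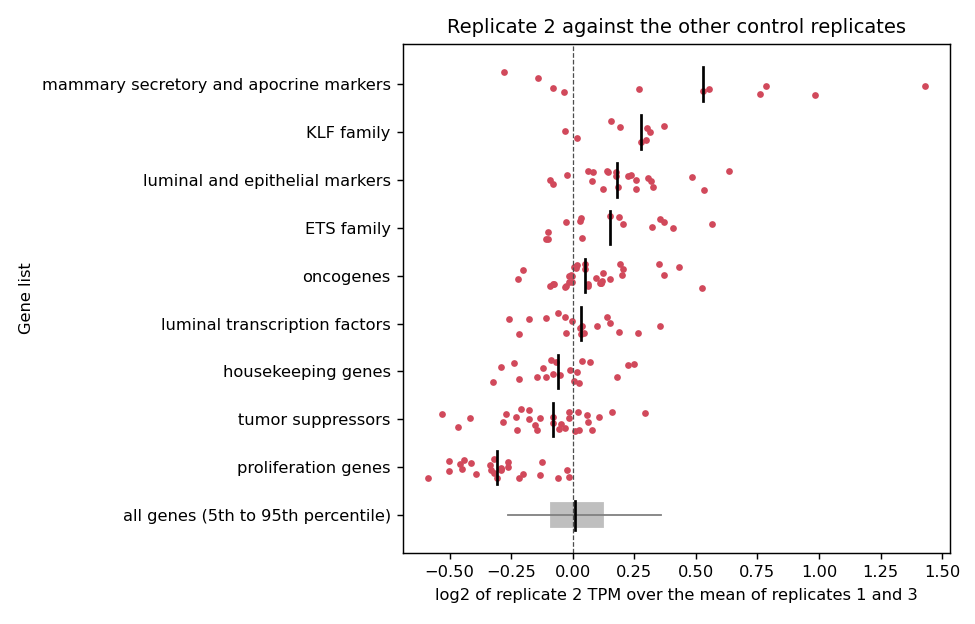
The log2 ratio of TPM in replicate 2 to the mean of replicates 1 and 3 for detected genes of at least 10 TPM, with 1 point per gene, a black bar at the median of each list, and for all genes a box of the middle quartiles with a line from the 5th to the 95th percentile. All proliferation genes lie left of 0 (median -0.31), and most secretory, KLF and epithelial genes lie right of 0.

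In replicate 2, 67 genes were at least 1.5 times above both other libraries and 16 were as far below, against 1 and 3 genes for replicate 1 and 4 and 3 for replicate 3. Examples among the genes with the largest CV were SCGB2A2, PADI3, a peptidylarginine deiminase (6.08, 17.6 and 6.64 TPM), and TNS4, a focal adhesion protein (8.37, 22.7 and 9.05). Others, picked out after their values were seen, were CRABP2, a retinoic acid carrier (60.8, 123 and 60.7), AZGP1, a secreted glycoprotein (38.01, 85.43 and 48.33), and DDIT4, an inhibitor of mTORC1 induced by stress (131.46, 231.34 and 121.11). Below the other libraries were EXO1, a DNA repair exonuclease (36.9, 22.2 and 36.1), and CLSPN, a replication checkpoint protein (15.3, 9.45 and 15.0).

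The other genes with the largest CV were either short snoRNAs (SNORD79, SNORD76 and SNORD35B) or members of near-identical groups. EIF3C, a translation initiation factor subunit, had 19.1, 7.33 and 57.8 TPM, and the near-identical EIF3CL had 693, 712 and 684. Their sum was 712, 719 and 742 TPM. It was mostly EIF3CL, so its small spread does not show that reads moved between the copies. POLR2J2 and UPK3BL1 varied from 5.65 to 34.3 and from 0 to 19.7 TPM. The 5 POLR2J and UPK3BL genes together had a CV of 5.60%. Most of that sum came from POLR2J and POLR2J4, at means of 111 and 74.6 TPM, so it says little about the variable members. ZNG1F (CBWD6 in the files) varied from 10.2 to 57.8 TPM, and the summed CV of 5 such genes was 17.7%. Reads can be divided differently between near-identical copies, so single values of these genes are uncertain. Whether such division gave their spread was not tested.

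At the other end, the 10 genes with the smallest CV spanned a wide range of levels. SMARCA4, a chromatin remodeling ATPase, measured 115 TPM in each library with a CV of 0.113%. CHCHD10, a mitochondrial protein, had 370, 369 and 369 TPM, and BCL2L1, an inhibitor of apoptosis, 85.8, 86.1 and 86.0. CHST15, AASDHPPT, MRPL50, GOPC, CTSV, TRAPPC3 and FNBP1 made up the rest, at 13.8 to 68.6 TPM. These CVs were below what counting error gives on average, so they cannot be read as smaller true variation.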

How the data were processed

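RNAseq was performed by the authors on polyadenylated RNA. The labels name both a KAPA stranded kit and a TruSeq kit, and the methods name STAR (hg38) and Salmon, whereas the deposited columns are those of RSEM. The deposited values are, per gene and library, the expected count (an estimated read number that can be fractional) and TPM, which the authors' software scaled by effective transcript length to a fixed total. The deposited transcript length, a mean in bases, was used only to recompute TPM. Other deposited columns and the other 9 files were not used. Use of strand in counting is not given in the sources used here, so overlapping genes are uncertain.

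The TPM of listed genes summed to between 924228 and 939340 per library. The rest lay outside the listed genes and was not analysed here. Levels, ranks, SD and CV were computed from TPM as deposited in Python 3.11.15 with pandas 2.3.3 and numpy 2.4.6, and plots in matplotlib 3.10.9. Expected counts were rounded and used in R 4.3.3 with edgeR 4.0.16 for the common dispersion (intercept only, TMM, genes reaching 10 counts in 1 library or more), a procedure tested on simulated data. No hypothesis test was made. Of 20531 genes, 20372 were matched by Entrez ID to RefSeq (GRCh38.p14), which gave coordinates and promoters. Promoters were found for 66.3% of genes not detectable, under the 80% needed for a comparison of promoters by level, so that comparison is void.

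Members and gene lists were chosen with earlier results of these data known. The genes named are the 25 with the highest TPM, the 5 markers, up to 8 of the highest and those not detectable in each list, the 10 largest and 10 smallest CVs above 10 TPM, the 10 with the most counts, and the detected genes of the highest chromosome 17 window. Some genes these rules select are not reported here. Other names, including members below the 8 highest of a list, trace members and genes beside ERBB2 outside that window, were chosen after their values were seen. The limit of 3 counts reflects counting error and nothing else, PCR copies not being independent. Alternatives were other limits for detection, other scalings, other window sizes and leaving out each replicate.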

Additional observations from a re-analysis of the deposited data

How the results depend on the processing

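With other limits for detection, between 10805 and 12677 genes were detected (11531 as reported), and between 3833 and 7136 were not detectable. Over all lists, 365 members were detected, and between 342 and 401 under the alternatives. By list, the count changed over 1.5 times for HER ligands (5 to 1 at 2 TPM) and, at 10 expected counts, for SOX (4 to 8), PAX (1 to 2) and adipocyte genes (1 to 3). The share held by the 25 leading genes was 9.92% by expected counts, 15.0% with TPM recomputed from counts and length, and 12.5% with TPM recomputed without ribosomal protein genes, and only 12 of the 25 leading genes were shared with the ranking by counts. With the same recomputations, which give listed genes the whole total, ERBB2 was 3453 and 4011 TPM and FOXA1 198 and 232 TPM. The highest window of chromosome 17 had a median of 322 TPM with 11 genes and 71.6 TPM with 41 genes. Leaving out each replicate gave a biological coefficient of variation of 3.67% to 11.5% and a median CV of TPM of 2.72% to 5.45%, the lowest of both without replicate 2. No paired analysis was possible because a single group was described and no groups were compared. The comparison of promoters by level was not run under other CpG ratios, since it is void.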
